A study of Homo sapiens with 12 samples.

Results

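Nuclear receptor coregulators are the proteins through which a hormone-bound receptor switches genes on or off. The 9 genes described here are the p160 coactivators NCOA1, NCOA2 and NCOA3, the acetyltransferases EP300 and CREBBP, their binding partner CITED2, the scaffold PELP1, and the corepressors NRIP1 and NCOR1. They were taken by symbol from a table of 20114 genes, and all 9 had enough counts to be among the 13872 genes tested. The RNA came from T47D, a human luminal breast carcinoma line that carries progesterone receptor, kept in medium without phenol red, starved of serum, and treated with a progestin (a ligand of that receptor) or with vehicle. The groups were 100 pM and 10 nM progestin and vehicle, each at 6 h and at 18 h, with 2 libraries per group numbered replicate 1 and replicate 3. The labels do not name the compound, all groups come from 1 cell line, and the title of the series concerns how such cells answer different levels of progestin.

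When the progesterone receptor binds its ligand it takes up p160 proteins, which bring in p300 (EP300) and CBP (CREBBP), and these acetylate histones around the target gene. CITED2 binds the same region of p300 and CBP that several transcription factors use, and so competes with them. PELP1 links steroid receptors to chromatin and to kinases in the cytoplasm, and it also takes part in ribosome assembly. NCOR1 holds histone deacetylase 3 on receptors without agonist, whereas NRIP1, also called RIP140, is recruited by receptors with agonist and brings in repressors.

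Levels are in CPM, each gene's counts scaled to a common library size, changes are log2 fold changes with their standard error, and a gene was called where edgeR's quasi-likelihood test gave an adjusted p under 0.05 over all genes tested. No label states that replicates are separate cultures, so a p-value here reflects only how far these libraries spread, which may be technical. In RNA from whole cultures, fewer cells that express a gene and less RNA per cell cannot be told apart. The libraries held 34204970 to 41373890 counts each, and no member had fewer than 1620 counts in any library. NCOA3, NCOR1, NRIP1, EP300 and CREBBP were each lower in replicate 3 than in replicate 1 in 6 of 6 groups, and the mitochondrial share of counts (6.69% to 10.8%) was higher in replicate 3 in every group. The part of these differences between replicates in the results was not tested. All 9 luminal markers listed were expressed, with a summed level of 7007 to 7037 CPM at 10 nM and 11699 to 11771 CPM in vehicle at 6 h, and of 5332 to 5422 CPM at 10 nM and 11140 to 11801 CPM in vehicle at 18 h. At 100 pM that sum was 11289 to 11611 CPM at 6 h and 10130 to 11202 CPM at 18 h. The 3 basal markers summed to 5.88 to 9.04 CPM at 10 nM for 18 h, against 1.46 to 2.12 CPM in vehicle, and reached at most 2.28 CPM in the other groups. The immune list reached at most 1.86 CPM and the endothelial list at most 0.927 CPM in any library, and CD3E and CDH5 had at most 1 count in any library. The fibroblast list summed to 72.1 to 119.8 CPM, and its member COL1A1 alone had 66.1 to 113.9 CPM. Of its other members, COL3A1 reached at most 9.48 CPM, LUM 0.671 CPM and DCN 0.650 CPM, and COL1A2 had at most 1 count in any library. The part of the marker levels in the members' changes was not tested.

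Per kilobase of exon, CITED2 was the most abundant member, with 178 ± 6.25 CPM per kb in vehicle at 6 h (SD, n = 2). NCOA3 followed with 29.0 ± 0.984 CPM per kb in the same libraries, then NCOA2 with 19.9 ± 0.0931, CREBBP with 19.2 ± 1.56 and EP300 with 18.0 ± 1.499 CPM per kb. NCOR1 (11.9 ± 1.25), NRIP1 (11.0 ± 1.12), NCOA1 (10.1 ± 0.283) and PELP1 (8.68 ± 0.0963) had the lowest levels in CPM per kb. Exon lengths came from GENCODE on GRCh38 and not from the annotation behind the counts, so small differences in this order carry no weight. Over the 6 group means, CITED2 spanned 1.35 on the log2 scale, NCOA2 0.86, NCOA3 0.83, NRIP1 0.71 and PELP1 0.56. NCOR1, CREBBP, EP300 and NCOA1 spanned 0.49, 0.40, 0.35 and 0.32.

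**Figure D1:**
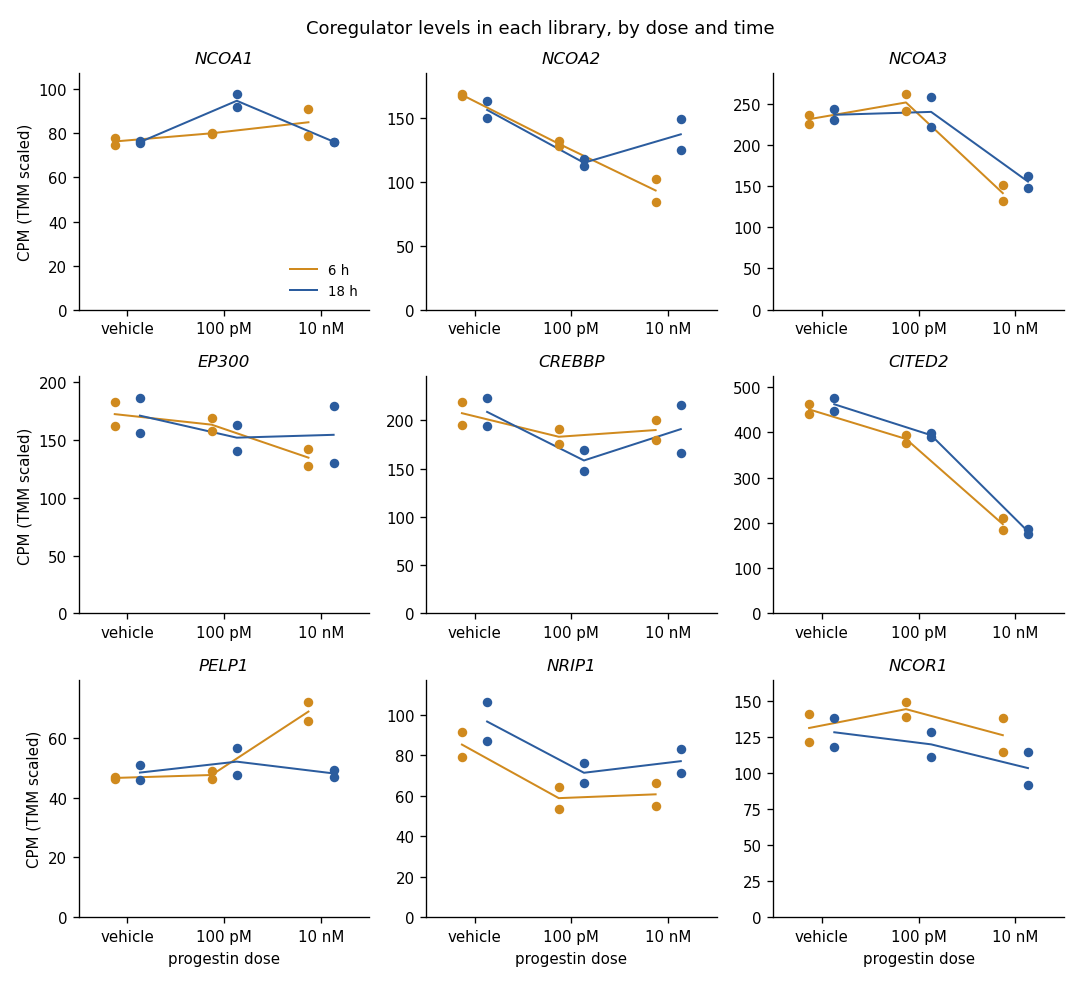
Level of each coregulator gene in every library, in CPM scaled by library size, against progestin dose (vehicle, 100 pM, 10 nM). Points are libraries, lines join the group means of 2 libraries, orange is 6 h and blue 18 h, and axes start at 0. CITED2 and NCOA3 were lower at 10 nM than in the other groups at both times, and PELP1 was highest at 10 nM for 6 h.

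The promoters of CITED2 and NCOA3, the members that fell at 10 nM at both times, and of PELP1, the member that rose at 10 nM, were read from RefSeq (GRCh38.p14), where 8 of the 9 members were matched. Each line gives the 250 bases before the annotated start, 5′ to 3′ on the gene's strand, and capitals mark motifs found on either strand: the E-box CACGTG, the CCAAT box CCAAT and the GC box GGGCGG or its reverse complement. For CITED2 the farthest upstream of 3 annotated starts is shown.
CITED2, chr6:139374649-139374898, minus strand: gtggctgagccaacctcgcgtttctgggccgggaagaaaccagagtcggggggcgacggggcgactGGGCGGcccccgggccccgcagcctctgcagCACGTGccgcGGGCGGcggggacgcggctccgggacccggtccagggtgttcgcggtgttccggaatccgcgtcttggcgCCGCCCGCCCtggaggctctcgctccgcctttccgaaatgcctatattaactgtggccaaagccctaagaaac
NCOA3, chr20:47501637-47501886, plus strand: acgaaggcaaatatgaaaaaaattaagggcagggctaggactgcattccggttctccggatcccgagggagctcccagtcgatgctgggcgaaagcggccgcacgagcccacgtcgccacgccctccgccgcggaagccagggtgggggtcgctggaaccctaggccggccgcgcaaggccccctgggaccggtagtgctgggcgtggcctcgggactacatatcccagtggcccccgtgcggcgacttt
PELP1, chr17:4704138-4704387, minus strand: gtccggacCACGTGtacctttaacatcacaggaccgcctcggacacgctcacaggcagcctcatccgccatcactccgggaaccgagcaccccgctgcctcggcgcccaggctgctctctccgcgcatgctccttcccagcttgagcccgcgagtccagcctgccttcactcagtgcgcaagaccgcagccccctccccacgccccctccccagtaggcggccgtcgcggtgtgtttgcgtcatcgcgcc
None of these windows holds AGAACA, one arm of the progesterone response element, on either strand, nor the full palindromic element with both arms. Of 35116 RefSeq promoters of this length, 12.4% hold the single arm and 0.00285% the full element. The CITED2 window holds 1 E-box and 4 GC boxes, of which 2 share bases, the PELP1 window 1 E-box, and the NCOA3 window none of these motifs. The E-box is in 6.34% of the promoters, the CCAAT box in 32.0% and the GC box in 42.6%. These are matches of letters in a short window.

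At 10 nM for 6 h, 4 of the 9 members fell, 1 rose and 4 were not called. CITED2 fell most, to 0.438 of its vehicle level, followed by NCOA2, NCOA3 and NRIP1, and PELP1 rose. The NRIP1 call was lost without 10 nM 6 h replicate 3 (adjusted p = 0.166) or vehicle 6 h replicate 1 (0.164). In this comparison 42% of all tested genes were called, 22.6% as higher and 19.4% as lower. The members' median change was -0.36, against -0.02 over all genes tested. At 10 nM for 18 h, CITED2 and NCOA3 fell, no member rose and 7 were not called, where 34.1% of all tested genes were called, 19% as higher and 15.2% as lower. The members' median change was -0.19 there, against a median of -0.00 over all genes. Comparisons that use the same vehicle libraries are not independent of each other.

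**Figure D2:**
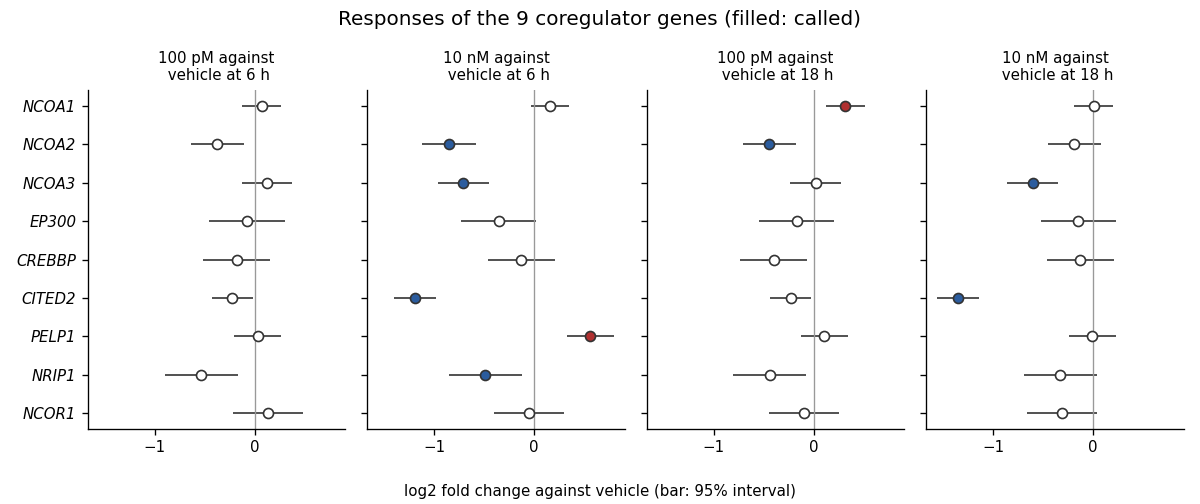
Log2 fold change of each coregulator gene against vehicle of the same time, in the 4 dose and time comparisons. Points are fitted values, bars 95% intervals, red points called as higher, blue points called as lower and open points not called. CITED2 lies at -1.19 and -1.35 at 10 nM, and at -0.23 at both times at 100 pM.

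Fewer members were called at 100 pM than at 10 nM at 6 h, while at 18 h 2 were called at each dose. At 6 h edgeR called 0 of the 9 members, where 3.48% of all tested genes were called. NCOA2, NRIP1 and CITED2 had an unadjusted p under 0.05 there, as did 1639 of the 13872 genes tested. DESeq2's Wald test called 1 member, NRIP1 (adjusted p = 0.0404), and 6.12% of all tested genes. At 18 h NCOA1 rose, NCOA2 fell and 7 members were not called, where 10.5% of all tested genes were called, 6.57% as higher and 3.89% as lower. Both calls were lost without any 1 of the 4 libraries compared (adjusted p 0.0766 to 0.212). The members' median change at 100 pM was -0.08 at 6 h and -0.17 at 18 h, against -0.02 and -0.03 over all genes.

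Among the p160 coactivators, NCOA3, also known as SRC-3 or AIB1 and amplified in part of breast cancers, was the most abundant and fell at 10 nM. At 6 h the vehicle libraries had 237 and 226 CPM, the 100 pM libraries 262 and 241 CPM and the 10 nM libraries 151 and 131 CPM. At 18 h vehicle had 243 and 229.9 CPM, 100 pM 258 and 222 CPM and 10 nM 163 and 148 CPM. The 10 nM libraries lay below every vehicle and 100 pM library at both times, and those of vehicle and 100 pM overlapped at 18 h. The change from vehicle at 10 nM was -0.71 ± 0.11 at 6 h (adjusted p = 0.000886) and -0.61 ± 0.11 at 18 h (adjusted p = 0.00264). At 100 pM it was 0.12 ± 0.11 at 6 h (95% interval -0.12 to 0.36) and 0.02 ± 0.11 at 18 h (-0.22 to 0.26), neither called. The 10 nM response at 18 h differed from that at 6 h by 0.10 ± 0.15 (95% interval -0.24 to 0.45), which was not called.

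NCOA2, also known as GRIP1, TIF2 or SRC-2, had lower levels at both doses, and its response to 10 nM differed between the times. At 6 h the libraries had 167 and 168 CPM in vehicle, 132 and 128 CPM at 100 pM and 102 and 84.5 CPM at 10 nM, with no overlap between doses. At 18 h they had 163 and 149 CPM in vehicle, 118 and 112 CPM at 100 pM and 149 and 125 CPM at 10 nM. There the 100 pM libraries were the lowest, and the higher 10 nM library lay just under the lower vehicle library. At 6 h NCOA2 fell by 0.85 ± 0.11 on the log2 scale at 10 nM (adjusted p = 0.000441) and changed by -0.37 ± 0.11 at 100 pM, which was not called. At 18 h the call was at 100 pM (-0.44 ± 0.11, adjusted p = 0.0400) and not at 10 nM (-0.19 ± 0.11, 95% interval -0.44 to 0.07). The 10 nM response was 0.66 ± 0.16 higher at 18 h than at 6 h, a difference that edgeR called (adjusted p = 0.0345). The 100 pM response differed between the times by -0.07 ± 0.16 (95% interval -0.43 to 0.29), not called. The 100 pM call at 18 h was lost without any 1 of the 4 libraries compared (adjusted p 0.0974 to 0.212) and in a fit of the 18 h libraries alone (0.112). The difference between the times was lost without 10 nM 6 h replicate 3 (0.0909), 10 nM 18 h replicate 1 (0.0880) or any 1 of the 4 vehicle libraries (0.0809 to 0.107).

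NCOA1, also known as SRC-1, was the steadiest of the p160 genes. Its libraries had 77.8 and 74.8 CPM in vehicle, 80.2 and 79.8 CPM at 100 pM and 91.1 and 78.9 CPM at 10 nM at 6 h. At 18 h they had 76.6 and 75.5 CPM in vehicle, 91.8 and 97.8 CPM at 100 pM and 76.2 and 76.3 CPM at 10 nM. The 100 pM libraries at 18 h stood above all other 10 libraries, the nearest being the higher 10 nM library at 6 h. The rise at 100 pM for 18 h was 0.32 ± 0.08 (adjusted p = 0.0383), while at 10 nM for 18 h the change was 0.00 ± 0.08 (95% interval -0.18 to 0.19). At 6 h the changes were 0.07 ± 0.08 at 100 pM and 0.16 ± 0.08 at 10 nM, neither called, and the 10 nM value was called without 10 nM 6 h replicate 3 (0.26, adjusted p = 0.0498). The rise was lost without any 1 of the 4 libraries compared (adjusted p 0.0766 to 0.178), with library totals as the only scaling (0.0632) and with the 18 h libraries alone (0.0955).

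Summed per kilobase of exon, a measure chosen after its values were seen and given without a test, the p160 genes had 59.0 ± 1.17 CPM per kb in vehicle, 57.5 ± 2.16 at 100 pM and 40.0 ± 4.37 at 10 nM at 6 h (SD, n = 2). At 18 h the sums were 58.2 ± 2.38 CPM per kb in vehicle, 56.2 ± 3.16 at 100 pM and 45.8 ± 3.31 at 10 nM. NCOA3 made up 49.1%, 54.8% and 44.3% of the sum in vehicle, 100 pM and 10 nM at 6 h, and 50.9%, 53.4% and 42.5% at 18 h. The share of NCOA2 was 33.7% in vehicle, 26.7% at 100 pM and 27.5% at 10 nM at 6 h, and 31.7%, 24.2% and 35.3% at 18 h. NCOA1 held 17.2%, 18.5% and 28.2% at 6 h and 17.4%, 22.4% and 22.1% at 18 h.

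**Figure D3:**
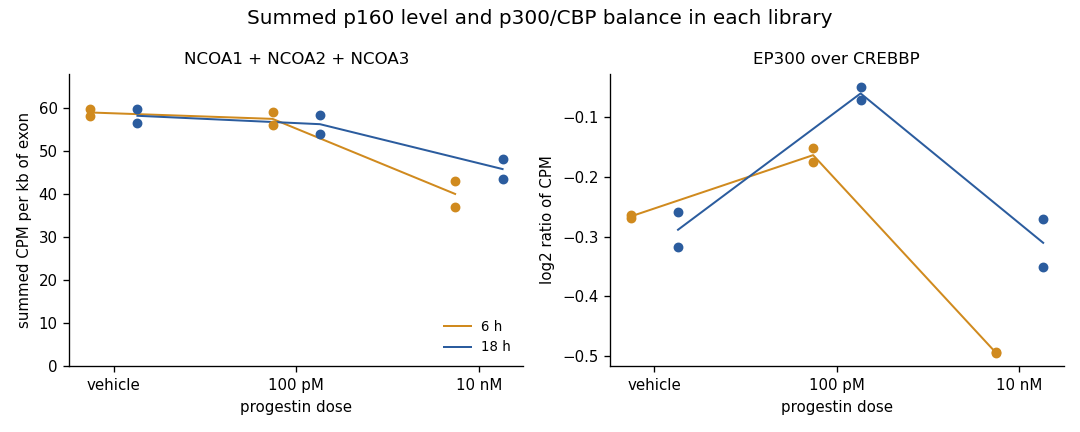
Left, summed CPM per kb of exon of NCOA1, NCOA2 and NCOA3 in each library, on an axis from 0; right, log2 ratio of EP300 to CREBBP in CPM, on an axis that does not include 0. Points are libraries, lines join group means, orange is 6 h and blue 18 h. The p160 sum is lowest at 10 nM, with group means of 40.0 at 6 h and 45.8 at 18 h, and the EP300 to CREBBP ratio is lowest at 10 nM for 6 h (-0.49).

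EP300 and CREBBP, which encode the paralogous acetyltransferases p300 and CBP, passed the test in no comparison of the fit by group alone. In EP300 the 6 h libraries had 183 and 162 CPM in vehicle, 169 and 158 CPM at 100 pM and 142 and 127 CPM at 10 nM. At 18 h EP300 had 187 and 156 CPM in vehicle, 163 and 141 CPM at 100 pM and 179 and 130.0 CPM at 10 nM, and all 3 doses overlapped. Both 10 nM libraries at 6 h lay below the other 6 h libraries, with a change from vehicle of -0.36 ± 0.16 (95% interval -0.72 to 0.01, adjusted p = 0.111). That value passed the threshold with library totals as the only scaling (-0.50, adjusted p = 0.0288) and with the 6 h libraries alone (-0.36, adjusted p = 0.0387). At 18 h the EP300 change at 10 nM was -0.15 ± 0.16 (95% interval -0.51 to 0.22).

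CREBBP had 219 and 196 CPM in vehicle, 191 and 175 CPM at 100 pM and 200.5 and 179.6 CPM at 10 nM at 6 h. At 18 h it had 223 and 194 CPM in vehicle, 169 and 148 CPM at 100 pM and 216 and 166 CPM at 10 nM. Here the 100 pM libraries at 18 h were among the lowest, and those of 10 nM overlapped vehicle at both times. The change at 100 pM for 18 h was -0.40 ± 0.14 (95% interval -0.72 to -0.07, adjusted p = 0.120), and at 10 nM the intervals were -0.45 to 0.20 at 6 h and -0.45 to 0.20 at 18 h. The log2 ratio of EP300 to CREBBP in CPM, chosen after its values were seen and not tested, was -0.27 in vehicle, -0.16 at 100 pM and -0.49 at 10 nM at 6 h, and -0.29, -0.06 and -0.31 at 18 h. Both libraries of 10 nM for 6 h had a ratio below that of every other library. CPM also depends on gene length, so the sign of this ratio does not tell which gene had the higher level. Per kb of exon EP300 had 15.9 and CREBBP 14.7 CPM at 100 pM for 18 h. In vehicle at 6 h EP300 had 18.0 and CREBBP 19.2 CPM per kb.

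CITED2, the p300 and CBP binding partner, gave the largest change of the 9 members and the only one ordered by dose at both times. Its 6 h libraries had 462 and 439.7 CPM in vehicle, 377 and 394 CPM at 100 pM and 185 and 210.0 CPM at 10 nM. The 18 h libraries had 448 and 476 CPM in vehicle, 398 and 389.6 CPM at 100 pM and 176 and 187 CPM at 10 nM. The 3 doses did not overlap at either time, and the libraries of the 2 times overlapped in vehicle, at 100 pM and at 10 nM. The fall at 10 nM was -1.19 ± 0.09 at 6 h (adjusted p = 1.76e-05) and -1.35 ± 0.09 at 18 h (adjusted p = 1.26e-05), which left 0.438 and 0.392 of the vehicle level. At 100 pM the change was -0.23 ± 0.09 at 6 h (95% interval -0.42 to -0.03, adjusted p = 0.312) and -0.23 ± 0.09 at 18 h (-0.43 to -0.04, adjusted p = 0.130), neither called. The 10 nM response at 18 h differed from that at 6 h by -0.16 ± 0.12 (95% interval -0.43 to 0.12), not called.

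PELP1, the scaffold protein, was the only member that rose at 10 nM, and only at 6 h. Its 6 h libraries had 46.2 and 46.9 CPM in vehicle, 48.9 and 46.3 CPM at 100 pM and 72.1 and 65.5 CPM at 10 nM. At 18 h PELP1 had 50.8 and 46.0 CPM in vehicle, 56.5 and 47.6 CPM at 100 pM and 47.1 and 49.1 CPM at 10 nM. The 10 nM libraries at 6 h stood above all other 10 libraries, and all 3 doses overlapped at 18 h. PELP1 rose by 0.56 ± 0.10 at 10 nM for 6 h (adjusted p = 0.00207), while the change at 18 h was -0.01 ± 0.10 (95% interval -0.24 to 0.22). The 10 nM response was lower at 18 h than at 6 h by -0.57 ± 0.14 (log2 difference, adjusted p = 0.0368). That difference lost its call without 10 nM 6 h replicate 1 (adjusted p = 0.119), either 10 nM library of 18 h (0.0687 and 0.0962) or any 1 of the 4 vehicle libraries (0.0639 to 0.131). At 100 pM PELP1 changed by 0.03 ± 0.10 at 6 h and 0.11 ± 0.10 at 18 h, neither called.

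Of the corepressors, NRIP1 was lower than vehicle in every treated library of the same time, and in the fit by group alone 1 of these 4 comparisons passed the test. At 6 h the libraries had 91.4 and 79.2 CPM in vehicle, 64.3 and 53.4 CPM at 100 pM and 66.4 and 55.1 CPM at 10 nM. At 18 h they had 106 and 86.9 CPM in vehicle, 76.4 and 66.4 CPM at 100 pM and 83.1 and 71.1 CPM at 10 nM. The 2 doses overlapped each other at both times, and replicate 3 was the lower library in each group. The call was at 10 nM for 6 h (-0.49 ± 0.16, adjusted p = 0.0332), with a change of -0.36 without 10 nM 6 h replicate 3 and -0.38 without vehicle 6 h replicate 1. The change at 100 pM for 6 h was -0.54 ± 0.16 (adjusted p = 0.138), at 100 pM for 18 h -0.44 ± 0.16 (0.117) and at 10 nM for 18 h -0.33 ± 0.16 (0.142).

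NCOR1 passed the test in no comparison of the same fit, which does not show that its levels were alike. Its libraries had 141 and 122 CPM in vehicle, 149.6 and 139 CPM at 100 pM and 138 and 114 CPM at 10 nM at 6 h, with 10 nM overlapping vehicle. At 18 h NCOR1 had 139 and 118 CPM in vehicle, 129 and 111 CPM at 100 pM and 115 and 92.1 CPM at 10 nM, and both 10 nM libraries lay below vehicle. The change at 10 nM was -0.06 ± 0.15 at 6 h (95% interval -0.40 to 0.28) and -0.31 ± 0.15 at 18 h (-0.65 to 0.03, adjusted p = 0.147). An antisense gene that is also in the table, AC002553.1, shares exon sequence with NCOR1 in GENCODE, and antisense genes outside the table share exon sequence with NRIP1, PELP1 and EP300. The strand setting of the counting is not given in the sources used here, so reads of the 2 strands cannot be told apart.

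Set against 100 pM, CITED2 and NCOA3 fell at 10 nM at both times. At 6 h, 3 members fell, 1 rose and 5 were not called, where 37% of all tested genes were called, 20.1% as higher and 16.8% as lower. CITED2 fell (-0.97 ± 0.09, adjusted p = 7.02e-05), as did NCOA3 (-0.83 ± 0.11, adjusted p = 0.000470) and NCOA2 (-0.48 ± 0.11, adjusted p = 0.0104), and PELP1 rose (0.53 ± 0.10, adjusted p = 0.00327). The NCOA2 call was lost without 10 nM 6 h replicate 3 (adjusted p = 0.0729). At 18 h CITED2 (-1.12 ± 0.09, adjusted p = 5.40e-05), NCOA3 (-0.63 ± 0.11, adjusted p = 0.00301) and NCOA1 (-0.31 ± 0.08, adjusted p = 0.0200) fell, none rose and 6 were not called, where 26.2% of all tested genes were called, 14.8% as higher and 11.4% as lower. The NCOA1 call was lost without 100 pM 18 h replicate 3 (adjusted p = 0.109), 10 nM 18 h replicate 1 (0.0871) or 10 nM 18 h replicate 3 (0.0637). NRIP1 differed between the doses by 0.05 ± 0.16 at 6 h (95% interval -0.31 to 0.40) and 0.11 ± 0.16 at 18 h (-0.24 to 0.47), neither called.

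Between 18 h and 6 h edgeR called members at 10 nM alone, and these were NCOA2 and PELP1. In vehicle edgeR called 0 of the 9 members and 0% of all tested genes, no member had an unadjusted p under 0.05 (178 of all tested genes did), and DESeq2 called 0 members and 2 genes. At 100 pM edgeR and DESeq2 each called 0 members, where they called 1.18% and 6.16% of all tested genes. Of the 9 members 1, NCOA1, had an unadjusted p under 0.05 (0.24 ± 0.08, edgeR adjusted p = 0.178), and so did 2251 of all tested genes. At 10 nM NCOA2 rose with time (0.56 ± 0.11, adjusted p = 0.00852), PELP1 fell (-0.52 ± 0.10, adjusted p = 0.00698) and 7 were not called, where 24.5% of all tested genes were called, 11.4% as higher and 13.1% as lower. The NCOA2 call was lost without 10 nM 6 h replicate 3 (adjusted p = 0.0523) or 10 nM 18 h replicate 1 (0.0518), and the PELP1 call without 10 nM 6 h replicate 1 (0.0502). The 10 nM response differed between the times in 2 members, NCOA2 as higher and PELP1 as lower, where 10.5% of all tested genes were called, 4.55% as higher and 5.99% as lower. The 100 pM response differed in 0 members by edgeR, by DESeq2 and at an unadjusted p under 0.05. Of all tested genes edgeR called 0.0144% and DESeq2 0.779%, and 987 genes had an unadjusted p under 0.05.

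CITED4 and CITED1, the other p300 and CBP binding proteins of the CITED family in the lists, moved opposite to CITED2 at 10 nM. CITED4 had 38.0 and 46.4 CPM in vehicle, 75.8 and 72.6 CPM at 100 pM and 275 and 334 CPM at 10 nM at 6 h. At 18 h CITED4 had 37.3 and 42.3 CPM in vehicle, 40.4 and 30.1 CPM at 100 pM and 264 and 253 CPM at 10 nM. CITED4 rose by 2.85 ± 0.17 at 6 h (adjusted p = 6.37e-06) and 2.70 ± 0.17 at 18 h (adjusted p = 1.13e-05) at 10 nM. At 100 pM CITED4 rose by 0.81 ± 0.16 at 6 h (adjusted p = 0.0267), a call lost without any 1 of the 4 libraries compared (0.0613 to 0.212) and with the 6 h libraries alone (0.0502). CITED1, at 1.68 and 2.66 CPM in vehicle and 25.5 and 29.8 CPM at 10 nM, rose by 3.67 ± 0.24 at 6 h (adjusted p = 1.03e-05). At 18 h CITED1 had 2.07 and 2.27 CPM in vehicle, 0.831 and 0.816 CPM at 100 pM and 3.73 and 4.94 CPM at 10 nM. Its change there was -1.40 ± 0.26 at 100 pM (adjusted p = 0.0111) and 0.997 ± 0.23 at 10 nM (adjusted p = 0.0104). The 10 nM call was lost without 10 nM 18 h replicate 3 (adjusted p = 0.0743) or vehicle 18 h replicate 1 (0.0644), and the 100 pM call without either 100 pM library (0.0592 and 0.0665) or vehicle 18 h replicate 3 (0.0625).

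**Figure D4:**
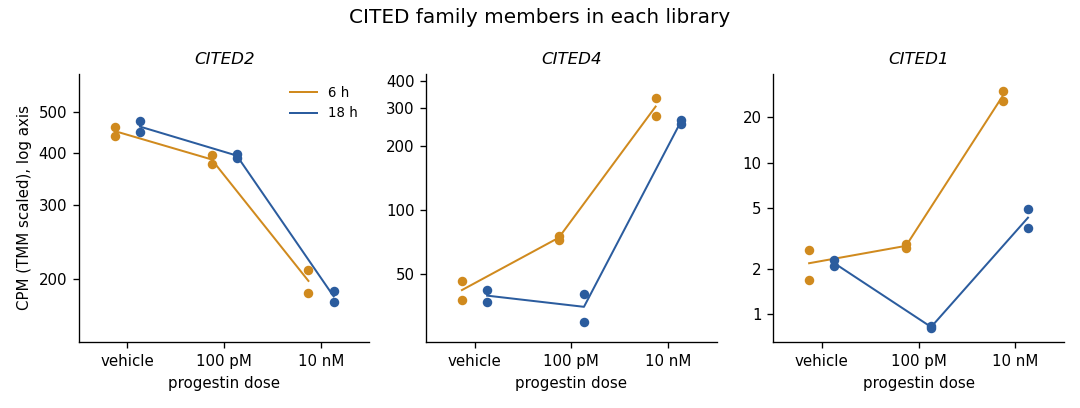
Levels of CITED2, CITED4 and CITED1 in every library, in CPM on log axes that differ between panels, against progestin dose. Points are libraries, lines join group means, orange is 6 h and blue 18 h. At 10 nM CITED2 lay below vehicle (197 against 451 CPM at 6 h), whereas CITED4 (305 against 42.2 CPM) and CITED1 (27.7 against 2.17 CPM) lay above it.

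The members were set beside 4 lists of other coregulators, with 116 of 118 listed genes tested. At 10 nM against vehicle, 42% of all tested genes were called at 6 h and 34.1% at 18 h, with median changes of -0.02 and -0.002. Of 33 other coactivators, 9 rose, 8 fell and 16 were not called at 10 nM for 6 h, and 6 rose, 3 fell and 24 were not called at 18 h, with median changes of -0.02 and -0.03. Besides CITED4 and CITED1, NCOA5, a coactivator without the p160 domain structure, rose by 0.67 ± 0.07 at 6 h (adjusted p = 0.000163). The acetyltransferase KAT2B, also called PCAF, rose by 0.86 ± 0.11 at 6 h (adjusted p = 0.000333) and 1.33 ± 0.11 at 18 h (adjusted p = 4.04e-05). ZMIZ1, a coactivator of the androgen receptor, fell by 0.76 ± 0.10 at 18 h on the log2 scale (adjusted p = 0.000610).

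Of 32 tested corepressors and subunits of their complexes, 9 rose, 5 fell and 18 were not called at 10 nM at each time, with median changes of 0.13 at 6 h and 0.04 at 18 h. The share called over all tested genes was 42% at 6 h and 34.1% at 18 h. The Sin3 complex subunit SAP30 rose by 1.98 ± 0.16 and 1.60 ± 0.16 at 10 nM (adjusted p = 2.67e-05 at 6 h and 0.000106 at 18 h). ANKRD11, which binds p160 coactivators and brings in deacetylases, rose by 1.64 ± 0.15 at 6 h (adjusted p = 6.44e-05). PHB2, described as a repressor of estrogen receptor activity, rose by 0.63 ± 0.08 at 6 h (adjusted p = 0.000335) and 0.78 ± 0.08 at 18 h (adjusted p = 0.000132). One listed corepressor, ZNF366, had no count in vehicle, and its level at 10 nM was at least 3.11-fold higher at 6 h and at least 3.58-fold higher at 18 h against a floor of 3 counts per library. That floor was 0.0766 CPM at 6 h and 0.0826 CPM at 18 h, so ZNF366 had a low level at 10 nM too. With no count in vehicle, it passed the filter on low counts through treated libraries alone. Its higher level at 10 nM is therefore no support for a rise, though it is among the 32 tested genes.

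**Figure D5:**
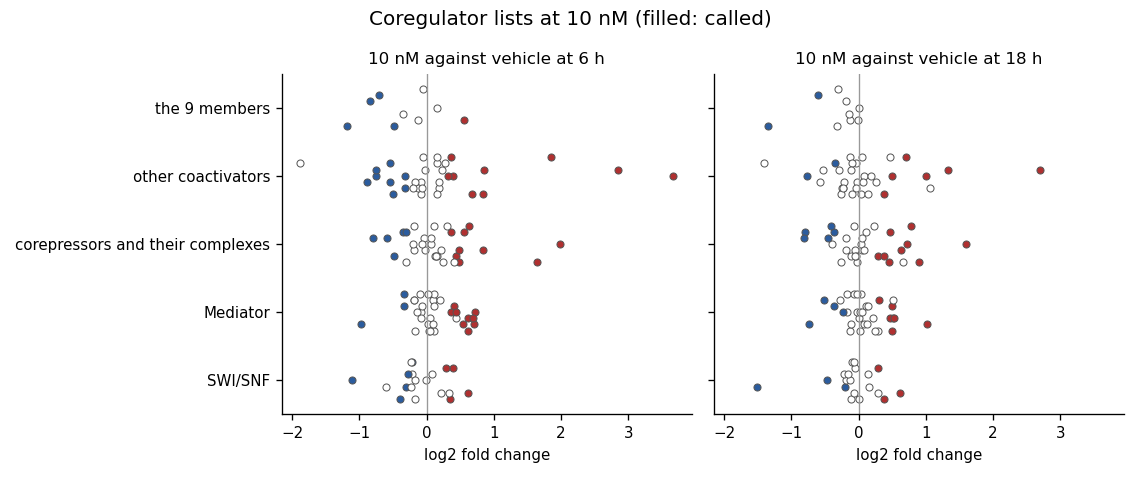
Log2 fold change at 10 nM against vehicle of the 9 members and of the tested genes of 4 coregulator lists, at 6 h (left) and 18 h (right). Each point is a gene, red called as higher, blue called as lower and open not called, with vertical scatter for legibility and ZNF366, which had no count in vehicle, left out. At 6 h 4 of the 9 members lie to the left of 0 as called genes and 1 to the right, and each list holds called genes on both sides. Over all tested genes 42% were called at 6 h and 34.1% at 18 h.

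The genes whose level followed that of CITED2 most closely over the 12 libraries were MPP7 (Pearson r = 0.986), PREX1 (0.983) and CCDC149 (0.981). They were picked from 10934 expressed genes with a protein-coding symbol or synonym in RefSeq. The libraries fall into dose groups and share their depth between genes, so these values describe likeness of pattern and carry no test. PREX1, a guanine nucleotide exchange factor for Rac, had 219 and 199 CPM at 10 nM, against 1164 and 1117 CPM in vehicle at 6 h, and 152 and 161 CPM at 10 nM, against 1095 and 1057 CPM in vehicle at 18 h. MPP7, a scaffold protein of cell junctions, had 88.0 and 77.2 CPM at 10 nM, against 216 and 222 CPM in vehicle at 6 h. In CCDC149, which had 29.8 and 32.3 CPM at 10 nM and 47.4 and 45.4 CPM in vehicle at 6 h, the fall was -0.58 ± 0.10 (adjusted p = 0.00144), against -1.19 for CITED2.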

How the data were processed

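RNA of T47D cells in 6 groups of 2 libraries was analysed. The authors deposited raw counts of reads per gene symbol, aligned to hg19 with STAR per the submitters' processing notes, which also name DESeq2 with no role. The sources used here do not give the counter, its strand setting, the annotation or the versions. The 12 libraries held 34204970 to 41373890 counts each, and all were used. Low genes were dropped with filterByExpr over the 6 groups, which left 13872 of 20114. TMM gave the effective library sizes, and the quasi-likelihood test of edgeR 4.0.16 (limma 3.58.1, R 4.3.3) was run on 1 fit of the 12 libraries with 1 coefficient per group and 6 residual degrees of freedom. Adjusted p-values are Benjamini-Hochberg over all genes tested, standard errors are the log2 fold change divided by the root of the F statistic, and 95% intervals use the test's own degrees of freedom. Comparisons of fold changes between times are interaction contrasts of the same fit. Alternatives were DESeq2 1.42.0, its size factors in edgeR, library totals alone, no filter, replicate number in the model, each time alone and each library left out. The fit was tested on simulated data for 10 nM against vehicle at 6 h. It called 11.9% of genes changed 1.5-fold, 74.6% of those changed 2-fold and 88.7% of those changed 4-fold. A gene that was not called may therefore still have changed. The members and lists were chosen with earlier results of these data known. All 9 members are reported, and from each wider list up to 4 called genes with the smallest adjusted p in 10 nM against vehicle at 6 h and at 18 h were eligible for naming. Of the genes this rule picks, 1 is not reported here. ZNF366 and AC002553.1 were named outside this rule after their values or overlaps were seen. For members whose group means span at least 1 on the log2 scale, which held for CITED2, the 3 tested genes with the highest correlation over the libraries were named, among those whose average log2 CPM reached 2, leaving out clone names, antisense genes and pseudogenes. Exon lengths and overlaps came from GENCODE on GRCh38 and promoters from RefSeq (GRCh38.p14), a build other than that of the counts, and no coordinates were carried between builds. Promoter sequence is shown for 3 members, and none is shown for NCOA2. Differences in CPM between genes also depend on length, so levels of different genes are ranked only per kilobase. The ratio of EP300 to CREBBP is in CPM and is compared only between groups.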

Additional observations from a re-analysis of the deposited data

Results flagged for a closer look

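The response of NCOA2 to 10 nM progestin differed between the times. It was -0.19 at 18 h and -0.85 at 6 h, and the test of the difference itself gave 0.66 ± 0.16 (95% interval 0.30 to 1.02, edgeR adjusted p = 0.0345). The response of PELP1 differed the other way, with -0.01 at 18 h and 0.56 at 6 h, a difference of -0.57 ± 0.14 (95% interval -0.89 to -0.25, edgeR adjusted p = 0.0368). In NCOA2 both 10 nM libraries were higher at 18 h than at 6 h, and in PELP1 both were lower. Between 18 h and 6 h in vehicle NCOA2 differed by -0.10 ± 0.11 and PELP1 by 0.05 ± 0.10, neither called. The NCOA2 difference lost its call without any 1 of 6 of the 8 libraries it uses (adjusted p 0.0809 to 0.107), and the PELP1 difference without any 1 of 7 of its 8 (0.0639 to 0.131).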

How the results depend on the processing

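Directions of called member values held in all alternatives run, and 958 of 1017 values recomputed kept their side of the threshold, 26 gained a call and 33 lost one. CITED2 and NCOA3 at 10 nM, against vehicle and against 100 pM, kept their calls in all of them, as did NCOA2 and PELP1 at 10 nM against vehicle at 6 h. With library totals as the only scaling the median of all genes moved to -0.16 at 10 nM for 6 h, against -0.02 with TMM. That scaling called 1 member at 100 pM for 18 h, against 2, and 10.4% of all tested genes, against 10.5%. With the 18 h libraries alone 0 members and 4.79% of all tested genes were called at 100 pM for 18 h. DESeq2 called 1 member and 6.12% of all tested genes at 100 pM for 6 h. When single libraries were left out, the number of called members ran from 4 to 5 in 10 nM against vehicle at 6 h, 3 to 4 in 10 nM against 100 pM at 6 h, 2 to 3 in 10 nM against 100 pM at 18 h, 1 to 2 in 18 h against 6 h at 10 nM, and 0 to 1 for the 10 nM response over time. It was 0 to 0 in 100 pM against vehicle at 18 h, and 2 throughout in 10 nM against vehicle at 18 h. The lone library of a group was then assumed to vary like the other groups. In each of these comparisons the share called over all tested genes was also smaller when a library was left out.

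The labels do not say what the replicate numbers share. Deviations from the group means correlated between same-numbered libraries with r of 0.464 to 0.677 across genes (15 pairs of groups, median 0.558). With the replicate number as a block, 3 members were called at 100 pM for 6 h, 5 at 100 pM for 18 h, 5 at 10 nM for 18 h, 6 in 10 nM against 100 pM at 18 h, 4 in 18 h against 6 h at 100 pM and 4 in 18 h against 6 h at 10 nM. In the same order, that fit called 12.2%, 34.1%, 56%, 50.2%, 22.2% and 49.2% of all tested genes. The block added 22 member calls and took away 0. With it NRIP1 was called as lower in all 4 comparisons with vehicle, at 100 pM for 6 h (-0.54, edgeR adjusted p = 3.69e-05), 100 pM for 18 h (-0.43, 0.000109) and 10 nM for 18 h (-0.32, 0.000377) as well as at 10 nM for 6 h. EP300 was called at 10 nM for 6 h (-0.36, edgeR adjusted p = 0.00188), CREBBP at 100 pM for 18 h (-0.40, 0.000810) and NCOR1 at 10 nM for 18 h (-0.31, 0.00108), against vehicle of the same time. CITED2 was called at 100 pM at both times (-0.23 at each, edgeR adjusted p = 0.0489 at 6 h and 0.0207 at 18 h), and NCOA2 at 100 pM for 6 h (-0.37, 0.00511) and 10 nM for 18 h (-0.19, 0.0459). The other 12 added calls were between doses or between times. Over all genes it raised the calls at 10 nM for 6 h to 8662, against 5826 without it. The same alternatives were run on the named genes of the wider lists and on those most like CITED2, an addition chosen after seeing the data.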

Other observations

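Complexes that work beside these coregulators were also measured. Of 32 Mediator genes, whose complex links activators to RNA polymerase II, 9 rose, 3 fell and 20 were not called at 10 nM for 6 h, and 6 rose, 4 fell and 22 were not called at 18 h. In these comparisons 42% and 34.1% of all tested genes were called. The kinase module gene CDK19 rose by 0.70 ± 0.09 at 6 h and 1.02 ± 0.09 at 18 h (adjusted p = 0.000352 and 6.01e-05), with 76.8 and 76.5 CPM at 10 nM and 36.5 and 39.1 CPM in vehicle at 18 h. MED13L, of the same module, fell by 0.97 ± 0.15 at 6 h and 0.75 ± 0.15 at 18 h on the log2 scale (adjusted p = 0.00102 and 0.00516). CCNC, the cyclin of that module, rose at 18 h (0.50 ± 0.09, adjusted p = 0.00325) and had 0.11 ± 0.09 at 6 h, not called.

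Of 19 genes of the SWI/SNF chromatin remodelling complexes, 4 rose, 5 fell and 10 were not called at 10 nM for 6 h, and 3 rose, 3 fell and 13 were not called at 18 h. Beside them, 42% of all tested genes were called at 6 h and 34.1% at 18 h. ARID2, of the PBAF form, had 75.5 and 66.4 CPM at 10 nM and 150.3 and 156 CPM in vehicle at 6 h, with changes of -1.11 ± 0.09 at 6 h and -0.47 ± 0.09 at 18 h (adjusted p = 3.77e-05 and 0.00482). PBRM1, of the same form, fell at 6 h (-0.40 ± 0.07, adjusted p = 0.00183). The paralogs ARID1A and ARID1B differed in sign at 6 h, with 0.61 ± 0.12 for ARID1A (adjusted p = 0.00364) and -0.31 ± 0.07 for ARID1B (adjusted p = 0.00673).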
